A study of Homo sapiens with 6 samples.

Results

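Oxidative phosphorylation is the part of respiration in which the inner mitochondrial membrane turns electrons from nutrients into ATP. Complexes I to IV pass electrons from NADH and succinate to oxygen and, except complex II, pump protons, and complex V, the ATP synthase, lets the protons flow back to make ATP. The subunits come from both genomes of the cell: a few hydrophobic core subunits are encoded by the mitochondrial DNA and made inside the organelle, the rest are nuclear and imported, and complex II is nuclear throughout. The mRNAs of these subunits were compared between Hep3B-Con and Hep3B-KD cells. The members were chosen by symbol among the protein-coding genes of GENCODE release 29, with the assembly factors of the NDUFAF series left out. The rule used no measured value, though it was set with earlier results of these data known. The members number 99 of the 29908 genes in the table, 13 encoded by the mitochondrial genome and 86 by the nuclear genome. Complex I holds 43 of them (7 mitochondrial, 36 nuclear), complex II 4 (nuclear), complex III 11 (1 and 10), complex IV 20 (3 and 17, with NDUFA4 and NDUFA4L2 counted here) and complex V 21 (2 and 19).

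Hep3B is an established human hepatocellular carcinoma line. Both groups were Hep3B cells infected with lentivirus at a multiplicity of infection of 5, with a control hairpin in Hep3B-Con or a short hairpin RNA in Hep3B-KD whose target is DAGLA, which encodes diacylglycerol lipase alpha, and both were selected with puromycin. Each group had 3 RNA-seq libraries of 15861039 to 17572714 reads, and since nothing says that these came from separate cultures, the p-values measure the spread between libraries, which may be technical. Values are FPKM, which divides the reads of a gene by the length of its annotated exons and by the depth of the library. DAGLA, the targeted gene, had 9.42, 9.404 and 9.02 FPKM in the 3 Hep3B-Con libraries and 4.62, 4.46 and 4.78 in the 3 Hep3B-KD libraries (log2 fold change -0.99, standard error 0.0441, adjusted p = 5.25e-06 from limma). All 8 hepatocyte markers checked were present, with ALB at 2032, 2071 and 2022 FPKM in Hep3B-Con and 3323, 3312 and 3309.9 in Hep3B-KD, and 7 of the 8 passed the test as higher in Hep3B-KD, HNF4A being lower. The fibroblast genes COL3A1 and DCN, the endothelial genes VWF, CDH5 and KDR and the leukocyte gene PTPRC were at or near 0 in all 6 libraries. With PECAM1 included, the 4 endothelial genes summed to 0.194 to 0.217 FPKM in Hep3B-Con and 0.278 to 0.385 in Hep3B-KD. The highest of these 4 had a mean of 0.268 FPKM, and none was tested. The leukocyte genes PTPRC and CD79A had means of at most 0.0521 FPKM, and CD3E and CD68 were not among the genes listed. The fibroblast genes COL1A1 (0.678, 0.732 and 0.826 FPKM in Hep3B-Con and 0.308, 0.209 and 0.295 in Hep3B-KD) and PDGFRA (2.298, 2.67 and 2.98 and 1.94, 1.68 and 1.86) were low and passed the test as lower in Hep3B-KD. In a bulk sample, a change in the share of cells that express a gene and a change of RNA per cell cannot be told apart.

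All 13 mitochondrially encoded members and 76 of the 86 nuclear members reached a mean of 0.5 FPKM over the 6 libraries and were tested with limma among 14221 genes. The 10 nuclear members below it were NDUFV2, NDUFS7, NDUFB8 and NDUFA7 of complex I, COX4I2, COX6B2, COX7A1 and COX7B2 of complex IV, and ATP5MGL and the read-through ATP5MF-PTCD1 of complex V, the last pair with 0 to 1 and 0 to 6 reads per library. The threshold is an adjusted p under 0.05 (Benjamini-Hochberg over all genes tested), and log2 fold changes give Hep3B-KD relative to Hep3B-Con and were computed on log2(FPKM + 0.1), which understates those of low genes. Of all genes tested, 36.1% passed as higher and 23.8% as lower in Hep3B-KD, so a call by itself is common here. Each count of calls below, unless given after centring, is to be read against these shares. Over all of them the log2 fold change had a median of 0.11, and differences of that size depend on how the libraries are scaled. When every library was instead set to a median log ratio near 0 (called centring from here on), 28.6% of the genes tested were higher and 30.3% lower.

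Of the 13 mitochondrially encoded mRNAs, 6 were higher in Hep3B-KD (MT-ND1, MT-ND3, MT-ND5, MT-ND6, MT-CYB and MT-ATP6), 2 were lower (MT-ND2 and MT-CO3) and 5 did not pass the test. Of the 76 nuclear members tested, 31 were higher, 9 were lower and 36 did not pass. The median log2 fold change was 0.094 for the mitochondrial and 0.13 for the nuclear members, on either side of the median of all genes. After centring the counts were 3 higher and 4 lower among the mitochondrial members and 19 higher and 12 lower among the nuclear members. The medians were then -0.0091 and 0.024, so the direction of the mitochondrial median turned with the scaling. Whether members of the 2 genomes differ from each other was not tested. No member passed a fold of at least 2 with an adjusted p under 0.05, a threshold that 5.89% of all genes passed as higher and 2.94% as lower. In 41 of the 89 members tested all 3 Hep3B-KD values lay above all 3 Hep3B-Con values, which was so for 40.7% of all genes, and in 11 all 3 lay below, which was so for 26.3%.

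**Figure D1:**
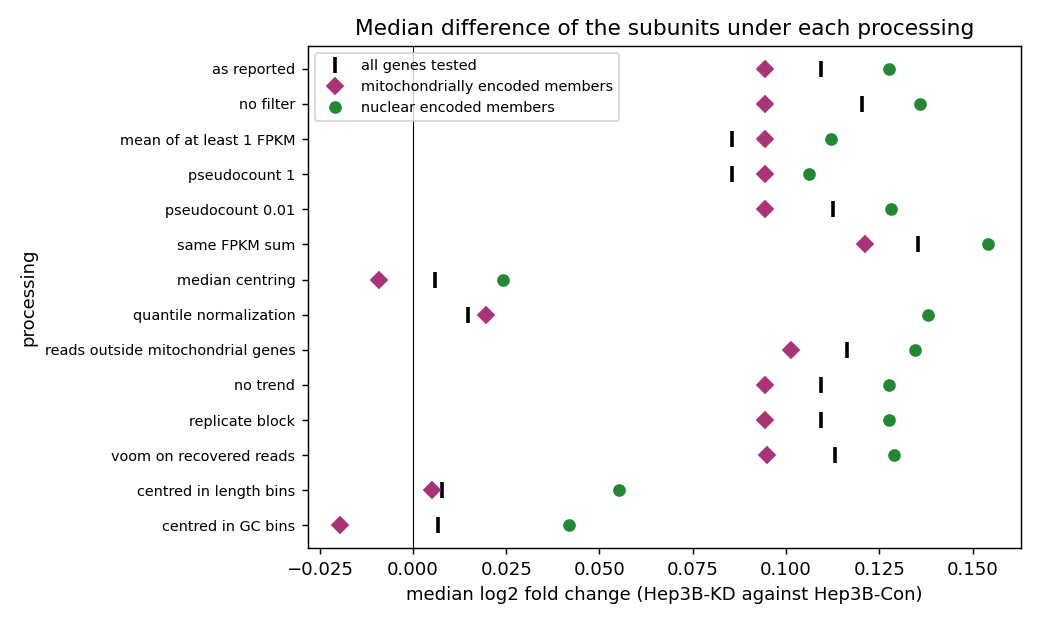
Median log2 fold change of the mitochondrial members (diamonds), the nuclear members (circles) and all genes tested (ticks) under each way of processing. Length and GC bins are 10 bins of genes within which each library was centred. All 6 libraries are in use in each case drawn. The nuclear median lies above the tick in each of these, and the median of the mitochondrial members is below 0 after median centring (-0.0091) and after centring in GC bins (-0.019).

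**Figure D2:**
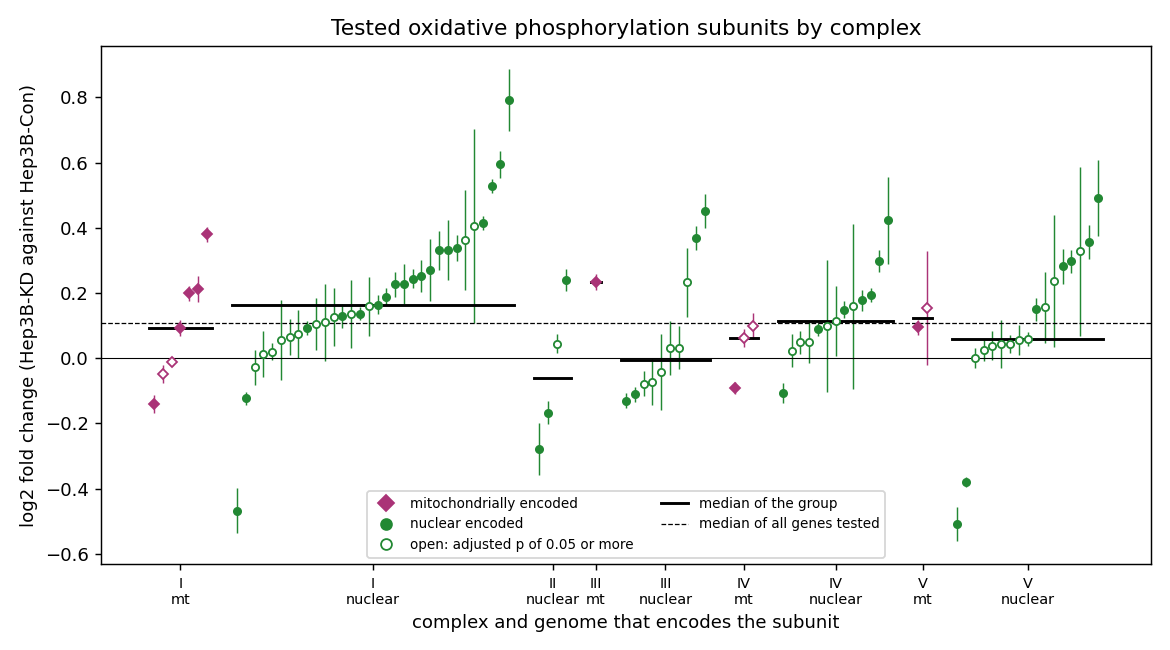
Log2 fold change with its standard error for each tested subunit, sorted within complex and encoding genome. Filled symbols have an adjusted p under 0.05, solid bars are group medians and the dashed line is the median of all genes tested (0.11). Nuclear subunits of complex I have the highest median of the nuclear groups (0.16) and those of complex II the lowest (-0.061), and members of opposite sign occur in most groups.

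Reads of the 13 mitochondrial members made up 3.81% to 3.91% of the library in Hep3B-Con and 3.92% to 4.01% in Hep3B-KD. Reads of the 86 nuclear members made up 0.613% to 0.621% in Hep3B-Con and 0.636% to 0.647% in Hep3B-KD. The groups did not overlap in either share. Summed FPKM, in contrast, overlapped, at 38949.7 to 40010.4 in Hep3B-Con and 39995.7 to 41318 in Hep3B-KD for the mitochondrial members and at 2431 to 2466 and 2459 to 2521 for the nuclear members. No test was run on these sums.

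The mitochondrial DNA is transcribed from both strands as long precursors that are cut into rRNAs, tRNAs and mRNAs, and all of its mRNAs except that of MT-ND6 are transcribed from the heavy strand. MT-ND6, the subunit of complex I that stands alone on the other strand (chromosome M, 14149 to 14673 of GRCh38), had 323, 318 and 331 FPKM in Hep3B-Con and 434, 414 and 417 in Hep3B-KD. Every Hep3B-KD library lay above every Hep3B-Con library, and this was the largest difference among the mitochondrial mRNAs (log2 fold change 0.38, standard error 0.024, adjusted p = 2.12e-05 from limma). The sources used here do not say whether strand was used in counting, so reads of MT-ND6 and of transcripts opposite to it cannot be told apart. The genes on either side of it on the map also rose. MT-ND5, a proton-pumping subunit of the membrane arm, went from 827, 811 and 768 FPKM in Hep3B-Con to 953, 879.7 and 956 in Hep3B-KD (log2 fold change 0.21, standard error 0.0406, adjusted p = 0.00376 from limma, with the call lost after centring, adjusted p = 0.0553, and under quantile normalization, adjusted p = 0.306). MT-CYB, cytochrome b and the mitochondrially encoded subunit of complex III (chromosome M, 14747 to 15887), went from 1772, 1820.2 and 1852 FPKM in Hep3B-Con to 2133, 2197 and 2075 in Hep3B-KD (log2 fold change 0.23, standard error 0.0252, adjusted p = 0.000243 from limma).

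The neighbouring genes MT-ND1 and MT-ND2 went opposite ways. MT-ND1, next to the rRNA genes (chromosome M, 3307 to 4262), had 2120.2, 2198 and 2221 FPKM in Hep3B-Con and 2546, 2527 and 2433 in Hep3B-KD (log2 fold change 0.20, standard error 0.0241, adjusted p = 0.000432 from limma). MT-ND2 (chromosome M, 4470 to 5511) had 3198, 2967 and 3147 FPKM in Hep3B-Con and 2772, 2849 and 2819.9 in Hep3B-KD (log2 fold change -0.14, standard error 0.0285, adjusted p = 0.0049 from limma). Neither gene's groups overlapped, but quantile normalization turned MT-ND1 to -0.095 (adjusted p = 1.43e-05 from limma). The MT-ND2 call stood under all 19 alternatives. The ratio of MT-ND1 to MT-ND2, which multiplying a library by a factor cannot move, was 0.663, 0.741 and 0.706 in Hep3B-Con and 0.919, 0.887 and 0.863 in Hep3B-KD. MT-ND3 was 1516, 1518 and 1534 FPKM in Hep3B-Con and 1567, 1682 and 1620.0 in Hep3B-KD, a small rise (log2 fold change 0.092, standard error 0.0251, adjusted p = 0.0177 from limma) that was -0.012 after centring, lost its call under quantile normalization (adjusted p = 0.0513), with no filter (adjusted p = 0.0851) and without the variance trend (adjusted p = 0.0896), and missed the threshold without Hep3B-Con replicate 1 or 2 (adjusted p = 0.0519 and 0.0541). MT-ND4 and MT-ND4L, made from a single mRNA, overlapped between groups, with 3811, 3722 and 3799 FPKM in Hep3B-Con and 3717, 3767 and 3755 in Hep3B-KD for MT-ND4. MT-ND4L had 1442, 1406 and 1495 FPKM in Hep3B-Con and 1407, 1365 and 1428 in Hep3B-KD. Neither passed the test as deposited (adjusted p = 0.453 and 0.162), and both passed as lower after centring, at -0.12 and -0.15 (adjusted p = 0.000323 and 0.00284). MT-ND4L also passed as lower with a replicate block (-0.048, adjusted p = 0.0273), but was higher under quantile normalization (0.081, adjusted p = 0.000583).

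The 3 mitochondrially encoded core subunits of cytochrome c oxidase, complex IV, were the most abundant members. MT-CO1, which holds the haem centre where oxygen is reduced, was at 7043, 6857 and 6528 FPKM in Hep3B-Con and 7087, 7058 and 7168 in Hep3B-KD, with adjusted p = 0.0879 although the groups did not overlap. MT-CO2, which takes electrons from cytochrome c, was at 8912, 8698 and 8742 FPKM in Hep3B-Con and 8833, 9947 and 9458 in Hep3B-KD with overlapping groups (adjusted p = 0.0755). MT-CO1 and MT-CO2 passed as higher at the same FPKM sum (adjusted p = 0.0264 and 0.0235 from limma). Both also passed with voom on recovered reads (adjusted p = 0.00137 and 0.000917). MT-CO1 passed without Hep3B-Con replicate 1 (adjusted p = 0.0213), and MT-CO2 without Hep3B-KD replicate 1 (adjusted p = 0.00484). After centring they stood at -0.042 and -0.0053, not called. MT-CO3 fell, from 7039.9, 6709.8 and 6891 FPKM in Hep3B-Con to 6442, 6533 and 6389 in Hep3B-KD (log2 fold change -0.092, standard error 0.019, adjusted p = 0.00543 from limma), with all 3 Hep3B-KD libraries below all 3 Hep3B-Con libraries. The MT-CO3 call was lost when no low gene was left out (adjusted p = 0.124) and without the variance trend of limma (adjusted p = 0.0635). The ratio of MT-CO2 to MT-CO3 was 1.27, 1.296 and 1.27 in Hep3B-Con and 1.37, 1.52 and 1.48 in Hep3B-KD.

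**Figure D3:**
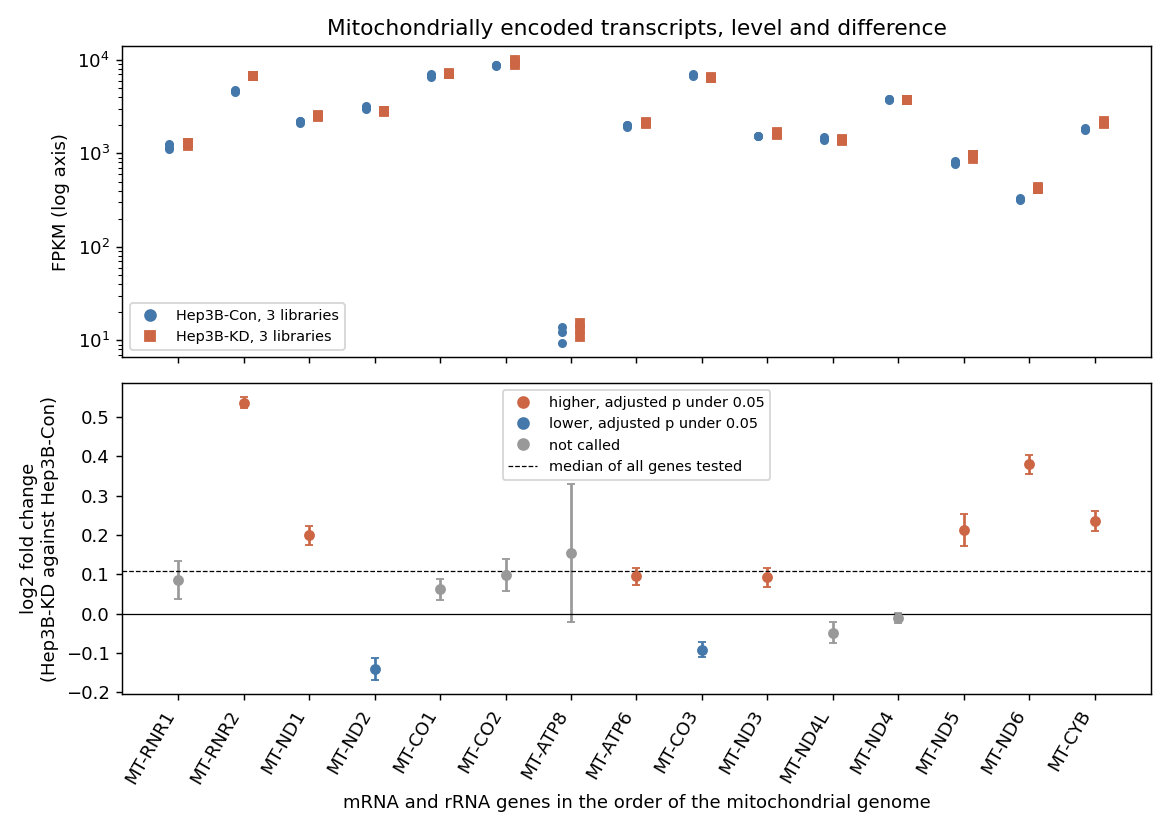
Upper panel: FPKM (log axis) of each mitochondrially encoded mRNA and of the 2 rRNAs in the 6 libraries, in genome order. Lower panel: log2 fold change with its standard error. The largest rises are at MT-RNR2 (0.54) and MT-ND6 (0.38), MT-ND2 (-0.14) and MT-CO3 (-0.092) fell, and MT-ATP8 lies near 12 FPKM, far under the others plotted.

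MT-ATP6 and MT-ATP8, subunits of the membrane part of ATP synthase, are read from a single mRNA in overlapping frames, yet their listed levels were far apart. MT-ATP6, which forms the proton channel with the c ring, had 1996, 1912 and 2011 FPKM in Hep3B-Con and 2093, 2086 and 2139 in Hep3B-KD (log2 fold change 0.094, standard error 0.0218, adjusted p = 0.00881 from limma, and -0.0091 after centring). Its call was also lost under quantile normalization, with no filter and without the variance trend (adjusted p = 0.357, 0.0667 and 0.0684). MT-ATP8 had 9.35, 13.9 and 12.2 FPKM in Hep3B-Con and 13.1, 10.8 and 15.4 in Hep3B-KD, from 34 to 53 reads per library against 22602 to 24174 for MT-ATP6. The gene is 207 bases long, and its last 46 bases are also the first 46 of MT-ATP6. It is shown in the sense of the mRNA from the GENCODE transcripts (GRCh38, plus strand, chrM:8366-8572), 5′ to 3′, with the shared bases in capitals, because the difference in listed level sits beside this overlap.
MT-ATP8: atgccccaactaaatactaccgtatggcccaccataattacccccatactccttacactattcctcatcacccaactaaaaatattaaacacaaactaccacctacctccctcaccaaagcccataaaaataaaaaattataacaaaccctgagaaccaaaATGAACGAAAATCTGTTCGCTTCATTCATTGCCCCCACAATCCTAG
The ratio of MT-ATP6 to MT-ATP8 was 214, 138 and 165 in Hep3B-Con and 159.8, 193 and 139 in Hep3B-KD. For MT-ND4L, 297 bases long with 7 bases shared with MT-ND4, the ratio of MT-ND4 to MT-ND4L was 2.64, 2.65 and 2.54 in Hep3B-Con and 2.64, 2.76 and 2.63 in Hep3B-KD. The part of the overlap or of the short length in the value of MT-ATP8 was not tested, and no direction is drawn from its 34 to 53 reads (adjusted p = 0.481).

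The rRNAs of the mitochondrial ribosome are not members, and 1 of them moved more than any mRNA of the genome. MT-RNR2, the large-subunit rRNA, had 4589, 4721 and 4597 FPKM in Hep3B-Con and 6737, 6667 and 6759 in Hep3B-KD (log2 fold change 0.54, standard error 0.0139, adjusted p = 6.63e-07 from limma). MT-RNR1, the small-subunit rRNA, had 1117, 1271 and 1181 FPKM in Hep3B-Con and 1291, 1211 and 1279.6 in Hep3B-KD, with overlapping groups (adjusted p = 0.177). Together the rRNAs took 0.822% to 0.857% of the reads in Hep3B-Con and 1.15% to 1.18% in Hep3B-KD. Of 4 nuclear copies of mitochondrial genes that could share reads with the true genes, listed after their values were seen, 1 was higher, 1 was lower and 2 did not pass. MTND1P23 had 246, 227 and 244 FPKM in Hep3B-Con and 287, 301 and 309 in Hep3B-KD, and MTND2P28 had 168, 166 and 171 FPKM in Hep3B-Con and 144, 154 and 146 in Hep3B-KD. Their log2 fold changes were 0.32 and -0.18 (adjusted p = 0.000471 and 0.0014). MTCO1P12 and MTATP6P1 differed by 0.017 and 0.097 with overlapping groups (adjusted p = 0.809 and 0.123). The mitochondrial tRNA gene MT-TP, in the same list, was higher in Hep3B-KD, with a log2 fold change of 0.51. How the authors' counting divided reads between the copies is not given in the sources used here, and its part in the values was not tested.

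Complex I takes electrons from NADH through a matrix arm of flavin and iron-sulfur subunits (NDUFV and most NDUFS) to a membrane arm with the MT-ND core and many NDUFA, NDUFB and NDUFC accessory subunits. Among its nuclear members 17 of the 32 tested were higher and 2 were lower in Hep3B-KD (median log2 fold change 0.16), and after centring 10 were higher and 3 lower (median 0.058). The shares of the 32 were 53.1% higher and 6.25% lower, against 36.1% and 23.8% of all genes tested. By series, 4 of 11 NDUFA, 6 of 10 NDUFB, 2 of 2 NDUFC, 4 of 7 NDUFS and 1 of 2 NDUFV members tested were higher. The NDUFA share, 36.4%, lay near that of all genes. The lower ones were NDUFB7 and NDUFS5.

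The 3 largest rises among nuclear members were accessory subunits of complex I. NDUFC2, of the membrane arm (chromosome 11, 78068304 to 78080219 of GRCh38), had 2.49, 2.36 and 2.08 FPKM in Hep3B-Con and 4.02, 3.76 and 4.45 in Hep3B-KD (log2 fold change 0.79, standard error 0.0937, adjusted p = 0.000383 from limma). NDUFA6, of the LYR-motif family, had 37.98, 39.98 and 40.9 FPKM in Hep3B-Con and 62.3, 57.1 and 60.3 in Hep3B-KD (log2 fold change 0.60, standard error 0.0413, adjusted p = 3.25e-05 from limma). NDUFA8, a disulfide-bonded subunit on the intermembrane-space side, had 30.5, 30.4 and 30.8 FPKM in Hep3B-Con and 43.7, 43.97 and 44.8 in Hep3B-KD (log2 fold change 0.53, standard error 0.0208, adjusted p = 3.26e-06 from limma). None of these groups overlapped, and the NDUFC2 values rest on 92 to 196 reads per library with 18.1% of its exon bases shared with other annotated genes. NDUFB7, which lies on the same side, moved against them, from 109.7, 105 and 114 FPKM in Hep3B-Con to 77.3, 73.1 and 87.96 in Hep3B-KD (log2 fold change -0.47, standard error 0.0683, adjusted p = 0.00107 from limma). NDUFS5 had 239.7, 238 and 248 FPKM in Hep3B-Con and 222, 224 and 219.9 in Hep3B-KD (log2 fold change -0.12, standard error 0.0199, adjusted p = 0.00177 from limma; 0.050 under quantile normalization), and was the most abundant nuclear member of complex I.

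Other called members of complex I, namely NDUFA5, NDUFA10, NDUFB1, NDUFB5, NDUFB9, NDUFB10, NDUFB11, NDUFC1 and NDUFS6, were all higher, with log2 fold changes from 0.13 for NDUFA10 to 0.34 for NDUFB5. In bins of exon length NDUFA10 turned to -0.054, and in GC bins NDUFA5 turned to -0.062. After centring the calls of NDUFA10, NDUFB1, NDUFB9, NDUFC1 and NDUFS6 were lost, at 0.026, 0.23, 0.061, 0.17 and 0.12 (adjusted p = 0.591, 0.0749, 0.129, 0.169 and 0.123). In GC bins NDUFB5 was at 0.049 and lost its call (adjusted p = 0.331). Leaving out Hep3B-Con replicate 1 ended the calls of NDUFA10, NDUFB1 and NDUFS6 (adjusted p = 0.0586, 0.0583 and 0.0509 from limma). The NDUFA10 call was also lost without Hep3B-KD replicate 3 (adjusted p = 0.0739), and the NDUFB1 call without Hep3B-Con replicate 3, Hep3B-KD replicate 2 or Hep3B-KD replicate 3 (adjusted p = 0.0615, 0.0625 and 0.063). The NDUFC1 call, from 229 to 315 reads per library, was lost without any single library except Hep3B-Con replicate 1 (adjusted p of 0.0757 to 0.123). Members that did not pass ranged from -0.028 for NDUFS4 to 0.41 for NDUFA13, which had 18 to 47 reads per library.

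Several core subunits carry the electrons. NDUFV1, which binds the flavin that takes electrons from NADH, had 52.2, 52.1 and 52.5 FPKM in Hep3B-Con and 56.4, 57.5 and 58.5 in Hep3B-KD (log2 fold change 0.14, standard error 0.0207, adjusted p = 0.00128 from limma), and lost its call after centring (0.033, adjusted p = 0.228). NDUFS1, the largest iron-sulfur subunit, had 13.9, 14.3 and 14.5 FPKM in Hep3B-Con and 16.9, 16.6 and 17.04 in Hep3B-KD (log2 fold change 0.24, standard error 0.0296, adjusted p = 0.00044 from limma). NDUFS8, another iron-sulfur subunit, had 36.3, 35.4 and 37.3 FPKM in Hep3B-Con and 40.95, 41.5 and 41.9 in Hep3B-KD (log2 fold change 0.19, standard error 0.0261, adjusted p = 0.000816 from limma). All 3 were higher in every Hep3B-KD library than in any Hep3B-Con library, though NDUFS1 stood at -0.021 when centred in bins of exon length and lost its call in GC bins (0.065, adjusted p = 0.101). NDUFS3 differed by 0.02 on the log2 scale, with overlapping groups (adjusted p = 0.549 from limma), and passed as lower after centring (-0.084, adjusted p = 0.0298).

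The core subunits NDUFV2 and NDUFS7 of the matrix arm were listed almost at 0. NDUFV2, the partner of NDUFV1, had 0.378, 0.3395 and 0.133 FPKM in Hep3B-Con and 0.349, 0.367 and 0.289 in Hep3B-KD, from 6 to 18 reads per library. NDUFS7, with the last iron-sulfur centre before quinone, had 0.257, 0.374 and 0.287 FPKM in Hep3B-Con and 0.427, 0.446 and 0.328 in Hep3B-KD, from 34 to 54 reads. The accessory subunits NDUFB8 and NDUFA7 were as low, with 2 to 19 and 5 to 12 reads per library. Of the exon bases of these genes 28.4%, 49.1%, 48.5% and 33.5% are shared with another annotated gene on either strand. Over all nuclear members, the 47 with any such overlap had a median level of 9.05 FPKM and the 39 without had 29.5 FPKM. Levels between subunits also depend on the annotated exon length by which reads were divided, among nuclear members from 507 bases for COX8A to 14160 for SDHC. The part of overlap or length in the low values was not tested. Among the nuclear members tested, 18 of the 41 with overlap were higher (43.9%) and 1 was lower (2.44%). Of the 35 without, 13 were higher (37.1%) and 8 lower (22.9%), near the shares of all genes tested (36.1% and 23.8%).

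**Figure D4:**
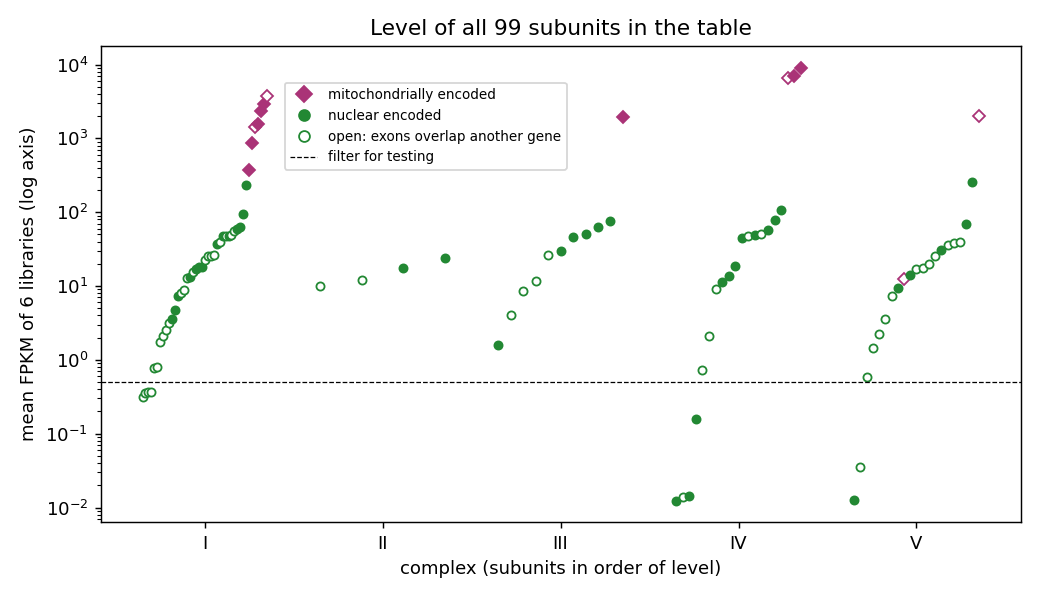
Mean FPKM over the 6 libraries (log axis) of all 99 members, by complex and in order of level. Diamonds are mitochondrially encoded and circles nuclear encoded, open symbols have exon bases shared with another gene, and the dashed line is the 0.5 FPKM filter. The members of complex I under the line are NDUFV2, NDUFS7, NDUFA7 and NDUFB8, all open symbols.

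Complex II, succinate dehydrogenase, links the tricarboxylic acid cycle to the chain. Its 4 subunits did not move together: SDHC was higher, SDHB and SDHD were lower and SDHA did not pass the test. SDHD, a membrane anchor, had 10.7, 10.99 and 10.9 FPKM in Hep3B-Con and 7.84, 9.302 and 9.75 in Hep3B-KD (log2 fold change -0.28, standard error 0.0797, adjusted p = 0.0209 from limma). SDHC, the other anchor, had 10.7, 11.3 and 11.2 FPKM in Hep3B-Con and 13.3, 13.05 and 12.9 in Hep3B-KD (log2 fold change 0.24, standard error 0.0344, adjusted p = 0.000961 from limma), with -0.024 when centred in bins of exon length. The ratio of SDHC to SDHD was 0.9999, 1.03 and 1.03 in Hep3B-Con and 1.69, 1.402 and 1.33 in Hep3B-KD, with no overlap. SDHB, the iron-sulfur subunit, had 18.7, 19.02 and 18.2 FPKM in Hep3B-Con and 17.1, 16.8 and 15.96 in Hep3B-KD (log2 fold change -0.17, standard error 0.0355, adjusted p = 0.00618 from limma), and SDHA, the flavoprotein that oxidises succinate, had 23.3, 24.2 and 23.96 FPKM in Hep3B-Con and 25.1, 24.6 and 24.03 in Hep3B-KD (adjusted p = 0.23). The call for SDHD is lost without Hep3B-Con replicate 2 (adjusted p = 0.0601) or replicate 3 (adjusted p = 0.0564).

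Complex III passes electrons from quinol to cytochrome c. Of its 10 nuclear members 2 were higher, 2 were lower and 6 did not pass, with a median of -0.006. UQCRB, which binds near the quinone site, had 3.39, 3.21 and 3.49 FPKM in Hep3B-Con and 4.54, 4.704 and 4.65 in Hep3B-KD (log2 fold change 0.45, standard error 0.0526, adjusted p = 0.000356 from limma, but 0.059 and adjusted p = 0.395 in GC bins), and UQCR10 had 40.2, 41.5 and 37.8 FPKM in Hep3B-Con and 51.5, 51.3 and 51.5 in Hep3B-KD (log2 fold change 0.37, standard error 0.0356, adjusted p = 0.000145 from limma). Both large core proteins were lower, UQCRC1 with 52.8, 52.7 and 55.03 FPKM in Hep3B-Con and 48.6, 49.03 and 49.02 in Hep3B-KD (log2 fold change -0.13, standard error 0.0235, adjusted p = 0.00291 from limma) and UQCRC2 with 30.3, 31.2 and 30.3 FPKM in Hep3B-Con and 28.5, 28.2 and 28.2 in Hep3B-KD (log2 fold change -0.11, standard error 0.0233, adjusted p = 0.00577 from limma). Both calls were lost under quantile normalization, at -0.014 for UQCRC1 and -0.043 for UQCRC2 (adjusted p = 0.643 and 0.179). The subunits that carry the electrons, CYC1 (cytochrome c1, 66.6, 60.4 and 66.1 FPKM in Hep3B-Con and 55.9, 66.96 and 61.2 in Hep3B-KD) and UQCRFS1 (the Rieske iron-sulfur protein, 27.1, 26.03 and 25.9 FPKM in Hep3B-Con and 22.1, 31.02 and 24.3 in Hep3B-KD), overlapped between groups. UQCRH, UQCR11, UQCRQ and UQCRHL also did not pass the test. After centring UQCRH passed as lower (-0.18, adjusted p = 0.00632 from limma), and 2 of the 10 were higher and 3 lower.

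In complex IV, 6 of the 13 nuclear members tested were higher and 1, COX7A2L, was lower (median log2 fold change 0.11). After centring 2 were higher and 1 lower (median 0.0096). COX4I1, the largest nuclear subunit, had 44.9, 45.98 and 46.5 FPKM in Hep3B-Con and 48.7, 48.8 and 48.6 in Hep3B-KD (log2 fold change 0.089, standard error 0.0208, adjusted p = 0.00923 from limma), a difference of -0.015 after centring (adjusted p = 0.576). COX5B had 53.7, 54.02 and 53.9 FPKM in Hep3B-Con and 59.7, 61.6 and 57.97 in Hep3B-KD (log2 fold change 0.15, standard error 0.0259, adjusted p = 0.00243 from limma), or 0.046 after centring with the call lost (adjusted p = 0.17), whereas COX5A, with 86.6, 68.8 and 70.4 FPKM in Hep3B-Con and 74.7, 90.9 and 78.2 in Hep3B-KD, overlapped (adjusted p = 0.398). NDUFA4, a subunit of complex IV despite its name, had 45.6, 46.1 and 46.5 FPKM in Hep3B-Con and 53.2, 53.4 and 51.5 in Hep3B-KD (log2 fold change 0.19, standard error 0.0222, adjusted p = 0.000332 from limma, but -0.096 when centred in bins of GC content), and COX6C had 16.6, 16.8 and 17.5 FPKM in Hep3B-Con and 20.3, 21.3 and 21.2 in Hep3B-KD (log2 fold change 0.30, standard error 0.0342, adjusted p = 0.000327 from limma). COX7A2L, a factor that joins complexes into supercomplexes, had 14.1, 13.9 and 14.1 FPKM in Hep3B-Con and 13.1, 13.3 and 12.7 in Hep3B-KD (log2 fold change -0.11, standard error 0.0301, adjusted p = 0.0195 from limma), and its call is lost without any of Hep3B-Con replicate 1, Hep3B-Con replicate 3 or Hep3B-KD replicate 3 (adjusted p = 0.0537, 0.0566 and 0.0592), at the same FPKM sum (adjusted p = 0.0557) or with a replicate block (adjusted p = 0.0579). COX8A, at 7.74, 6.24 and 9.36 FPKM in Hep3B-Con and 10.3, 10.2 and 10.5 in Hep3B-KD from 55 to 88 reads, loses its call without 4 of the 6 libraries taken singly, namely Hep3B-Con replicate 1 and each Hep3B-KD replicate (adjusted p of 0.0699 to 0.0812), and after centring (adjusted p = 0.0824). COX7C was higher by 0.18 (adjusted p = 0.00249 from limma) stood at 0.074 after centring (adjusted p = 0.0811) and at -0.11 in GC bins, and COX6A1, COX6B1, COX7A2 and COX7B did not pass the test.

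Several subunits have a second form made in particular tissues, and the forms differed in level. The alternative forms of complex IV were at or near 0: COX4I2 had reads in 1 library only (0 to 1 per library), COX7B2 had 0 to 1, COX6B2 0 to 4 and COX7A1, the form of heart and muscle, 0 to 8. Their ubiquitous counterparts COX4I1, COX7B, COX6B1 and COX7A2 had means of 47.3, 11.3, 106 and 44.1 FPKM. NDUFA4L2, a gene induced by low oxygen in many cells, had 0.669, 0.882 and 0.492 FPKM in Hep3B-Con and 0.719, 0.644 and 0.924 in Hep3B-KD against a mean of 49.4 for NDUFA4. UQCRHL, an intronless near-copy of UQCRH whose reads could be shared with it, had a mean of 1.597 against 75.6 FPKM. Of the genes that encode the same mature c-ring protein of ATP synthase, ATP5MC2 went from 21.6, 23.3 and 24.6 FPKM in Hep3B-Con to 28.1, 29.3 and 27.2 in Hep3B-KD (log2 fold change 0.28, standard error 0.0527, adjusted p = 0.00345 from limma), ATP5MC3 from 18.9, 19.04 and 19.2 FPKM in Hep3B-Con to 20.7, 22.3 and 20.6 in Hep3B-KD (log2 fold change 0.15, standard error 0.0364, adjusted p = 0.0109 from limma, but 0.046 and adjusted p = 0.315 after centring and -0.029 in GC bins), and ATP5MC1 from 14.2, 14.2 and 13.5 FPKM in Hep3B-Con to 14.9, 13.7 and 15.1 in Hep3B-KD with overlapping groups (adjusted p = 0.335). COX6A2, COX8C and NDUFC2-KCTD14, which the rule also names, are not among the 29908 genes listed and so have no values.

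Complex V had the most abundant nuclear member and 2 of the 5 largest nuclear falls. ATP5F1B, the catalytic beta subunit of the F1 head (chromosome 12, 56638175 to 56646068), had 289, 289.8 and 284 FPKM in Hep3B-Con and 223, 218 and 222 in Hep3B-KD, from 8135 to 11780 reads per library. The groups lay far apart compared with the spread within them (log2 fold change -0.38, standard error 0.0158, adjusted p = 4.15e-06 from limma). ATP5F1A, the alpha subunit that alternates with beta in the head, had 37.1, 37.8 and 38.4 FPKM in Hep3B-Con and 39.3, 39.7 and 39.1 in Hep3B-KD (log2 fold change 0.058, adjusted p = 0.055). The ratio of ATP5F1B to ATP5F1A was thus 7.77, 7.67 and 7.402 in Hep3B-Con and 5.68, 5.50 and 5.68 in Hep3B-KD.

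ATP5F1D, the delta subunit of the central stalk, fell from 37.5, 34.3 and 35.01 FPKM in Hep3B-Con to 24.7, 26.6 and 23.7 in Hep3B-KD (log2 fold change -0.51, standard error 0.0521, adjusted p = 0.000194 from limma), the largest fall of any member. The stalk subunits ATP5F1C (gamma) and ATP5F1E (epsilon) did not pass the test, with log2 fold changes of 0.044 and 0.00031, and ATP5F1E passed as lower after centring (-0.10, adjusted p = 0.0255). So no F1 subunit was higher and 2 of 5 were lower, or 3 of 5 after centring. Outside the head the called differences were all rises, 2 of 3 in the c ring, 2 of 4 in the peripheral stalk and 1 of 5 among the other membrane subunits tested. ATP5MF, of the membrane part, had 3.05, 2.504 and 3.38 FPKM in Hep3B-Con and 4.57, 4.08 and 3.97 in Hep3B-KD from 99 to 165 reads (log2 fold change 0.49, standard error 0.117, adjusted p = 0.00985 from limma). ATP5PD of the peripheral stalk had 6.89, 6.29 and 6.36 FPKM in Hep3B-Con and 8.41, 8.67 and 8.002 in Hep3B-KD (log2 fold change 0.36, standard error 0.0525, adjusted p = 0.00111 from limma), and ATP5PF, also of this stalk, had 15.3, 16.4 and 15.4 FPKM in Hep3B-Con and 19.5, 19.1 and 19.3 in Hep3B-KD (log2 fold change 0.30, standard error 0.0346, adjusted p = 0.000355 from limma). ATP5PB and ATP5PO of the stalk and ATP5MD, ATP5ME, ATP5MG and ATP5MPL of the membrane part did not pass, with log2 fold changes from 0.025 for ATP5PB to 0.33 for ATP5ME, the latter from 6 to 11 reads per library.

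**Figure D5:**
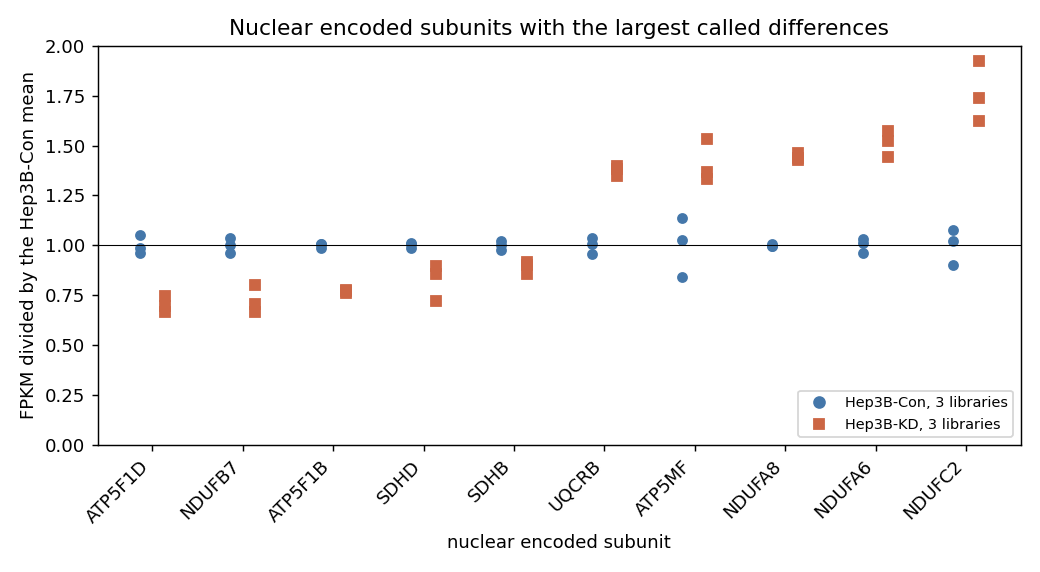
FPKM of each library divided by the Hep3B-Con mean for the 5 largest called falls and the 5 largest called rises among nuclear members. In all 10 genes the Hep3B-KD squares lie on 1 side of the Hep3B-Con circles, and the points of ATP5F1B and NDUFA8 are the most tightly grouped.

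Many nuclear respiratory genes carry promoter sites for nuclear respiratory factor 1 (NRF1) or for ETS factors such as GABP. RefSeq promoters (GRCh38.p14, 250 bases before to 50 after the start) were matched for 66 of the 86 nuclear members. The NRF1 letters, GCGCA, any base and then GCGC, occurred on either strand in 16 of the 66 (24.2%) and in 6.28% of all 27305 promoters. The ETS letters CCGGAAGT occurred in 10 (15.2%) against 4.44%, and the YY1 letters AAGATGGC in 11 (16.7%) against 3.03%, and none of these strings holds another. Of the 16 members with the NRF1 letters, 3 were higher (NDUFA8, NDUFB4 and UQCR10), 2 were lower (SDHD and UQCRC1) and 11 did not pass the test. Among the 10 with the ETS letters 4 were higher and 1 lower, and among the 9 tested with the YY1 letters 2 were higher and 2 lower. Of the 60 tested members with a promoter in the table, 21 were higher and 6 lower. NDUFB4, an accessory subunit of the complex I membrane arm, had 50.5, 50.95 and 50.7 FPKM in Hep3B-Con and 69.5, 66.7 and 66.9 in Hep3B-KD (log2 fold change 0.42, standard error 0.022, adjusted p = 1.04e-05 from limma). The promoters of 2 members that rose and 1 that fell are shown 5′ to 3′ on the strand of the gene, with NRF1 and ETS letters in capitals. In NDUFA8 the NRF1 letters stand at 2 overlapping places, in NDUFB4 at 3 places, and in SDHD the later capitals are the ETS letters on the opposite strand.
NDUFA8 (chr9:122159730-122160029, strand -): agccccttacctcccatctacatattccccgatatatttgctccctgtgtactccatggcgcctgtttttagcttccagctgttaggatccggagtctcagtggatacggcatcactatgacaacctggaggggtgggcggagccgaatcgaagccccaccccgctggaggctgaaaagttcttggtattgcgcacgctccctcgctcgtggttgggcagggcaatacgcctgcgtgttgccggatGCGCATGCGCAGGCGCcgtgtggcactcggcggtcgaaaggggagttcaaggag
NDUFB4 (chr3:120596086-120596385, strand +): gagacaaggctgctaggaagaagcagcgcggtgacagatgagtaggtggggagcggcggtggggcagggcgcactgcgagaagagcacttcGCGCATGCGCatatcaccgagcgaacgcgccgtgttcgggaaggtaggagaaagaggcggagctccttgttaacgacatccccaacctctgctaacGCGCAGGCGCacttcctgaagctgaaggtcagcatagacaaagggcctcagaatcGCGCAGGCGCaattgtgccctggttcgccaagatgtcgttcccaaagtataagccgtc
SDHD (chr11:112086623-112086922, strand +): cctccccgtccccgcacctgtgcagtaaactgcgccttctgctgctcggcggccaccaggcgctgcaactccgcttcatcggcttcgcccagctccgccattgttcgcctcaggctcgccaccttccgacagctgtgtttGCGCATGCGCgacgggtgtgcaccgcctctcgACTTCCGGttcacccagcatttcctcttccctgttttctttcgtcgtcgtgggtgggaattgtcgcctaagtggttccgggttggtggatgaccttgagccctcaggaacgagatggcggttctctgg
Log2 fold changes were above 0 for 13 of the 16 members with the NRF1 letters and below 0 for 3. Of the 60 tested members with a promoter, 51 were above 0 and 9 below. The part of these letters in the values was not tested.

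The hairpin's target sequence in DAGLA was examined in the members because a hairpin strand can also pair with other mRNAs through a short seed. The target is shown in full, with the bases that pair with the seed of the complementary strand in capitals, beside the matching sites in the 3′ UTRs of NDUFB7 and SDHC, read from the GENCODE transcripts.
Target: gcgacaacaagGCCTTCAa
NDUFB7: aaataaaaGCCTTCAggcccctc
SDHC: tgagtgtaGCCTTCAtgagaaga
The 7 letters GCCTTCA occurred in the longest 3′ UTR of 5 of the 86 members that have one of at least 50 bases (5.81%). Past the 0.5 FPKM filter they occurred in 5 of 76 such members (6.58%) and in 16.5% of 11229 such genes. Of these 5 members NDUFB7 was lower, SDHC and UQCRB were higher, and NDUFA9 and UQCRHL did not pass the test. The part of the match in any of these values was not tested.

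Genes that build and supply the complexes were listed separately. Of 19 complex I assembly factors, 7 were higher and 5 were lower (median log2 fold change -0.018). DMAC1, a factor for the membrane arm, went from 10.5, 11.4 and 11.1 FPKM in Hep3B-Con to 5.61, 4.73 and 5.303 in Hep3B-KD (log2 fold change -1.06, standard error 0.0697, adjusted p = 2.52e-05 from limma) and was past a fold of 2. Of 30 tested assembly factors of complexes II to V, 8 were higher and 6 lower (median -0.022). Of 20 genes for copying and transcribing mitochondrial DNA, 5 were higher and 5 lower (median 0.016), and the lower ones included both POLRMT, the mitochondrial RNA polymerase, and its initiation factor TFB2M. POLRMT had 44.2, 40.5 and 43.3 FPKM in Hep3B-Con and 32.8, 32.7 and 31.97 in Hep3B-KD (log2 fold change -0.39, standard error 0.0358, adjusted p = 0.000115 from limma), and TFB2M had 31.99, 34.2 and 34.2 FPKM in Hep3B-Con and 23.3, 22.8 and 22.9 in Hep3B-KD (log2 fold change -0.54, standard error 0.0328, adjusted p = 1.83e-05 from limma). TFAM, which packs the DNA and bends its promoters, had 16.05, 17.9 and 16.2 FPKM in Hep3B-Con and 17.96, 18.9 and 17.4 in Hep3B-KD with overlapping groups (adjusted p = 0.116).

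Of 22 tested genes of mitochondrial RNA processing and stability, 5 were higher and 6 lower (median 0.017). The mRNA-binding partners LRPPRC and SLIRP differed by 0.061 (adjusted p = 0.0542) and 0.22 (adjusted p = 0.0235) on the log2 scale in limma. Of 11 mitochondrial translation factors, 3 were higher and 4 lower. Of 13 tested nuclear regulators of these genes, 4 were higher and 5 lower, and 2 passed a fold of 2: PPARGC1A, the coactivator PGC-1alpha, with 0.414, 0.619 and 0.503 FPKM in Hep3B-Con and 1.14, 1.15 and 1.06 in Hep3B-KD, and the receptor ESRRG, with 0.308, 0.374 and 0.292 FPKM in Hep3B-Con and 0.780, 0.793 and 0.712 in Hep3B-KD (1.01 and 1.03 on the log2 scale, adjusted p = 0.00338 and 0.00775 from limma). Both were listed at low levels. Of 10 tested carriers and other entries to the chain, 4 were higher and 3 lower, with SQOR, which feeds electrons from sulfide, past a fold of 2 (3.04, 3.204 and 2.84 FPKM in Hep3B-Con and 1.12, 1.29 and 1.37 in Hep3B-KD, log2 fold change -1.20, standard error 0.0989, adjusted p = 6.81e-05 from limma). Of 18 genes of the tricarboxylic acid cycle and pyruvate dehydrogenase, 6 were higher and 3 lower (median 0.036). Of 16 genes of the outer membrane and of general mitochondrial content, 4 were higher and 9 lower (median -0.25). Their log2 fold changes ran from -0.63 to 0.70, and 0 passed a fold of 2.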

How the data were processed

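RNA was extracted, made into Illumina mRNA libraries and sequenced by the authors, with 3 libraries of Hep3B-Con and 3 of Hep3B-KD. As deposited, the values are FPKM (reads divided by exon length and library depth) in 1 table of 29908 Ensembl genes with 0 further value columns. The submitters' processing notes name Bowtie2 2.0.6, TopHat2 2.0.12 and GRCh37, without their roles. Exon lengths of GENCODE release 29 (GRCh38), however, turned all 138115 values above 0 into whole reads within 0.01, summing to 15861039 to 17572714 per library, so gene names and coordinates were taken from that release.

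The 14221 rows that reached a mean of 0.5 FPKM were tested as log2(FPKM + 0.1) with limma 3.58.1 (lmFit, eBayes with trend) in R 4.3.3, Benjamini-Hochberg adjusted, after a test on simulated data. All members could be named, except that 1 is counted but not reported here: values are given for every mitochondrially encoded member, nuclear core subunits, the 5 largest called rises and falls with groups that do not overlap, isoform pairs, and genes of other lists past a fold of 2. Members and lists were chosen with earlier results of these data known. Alternatives changed the filter, pseudocount, scaling, variance model, replicate block, unit (voom on recovered reads), length bins and libraries, and centring in GC bins was added after seeing the data. Replicate numbers did not pair the samples (correlations of deviations -0.013, -0.066 and -0.0011). Gene symbols, exon overlap and 3′ UTRs came from GENCODE, promoters from RefSeq GRCh38.p14. Tables were handled with Python 3.11.15, numpy 2.4.6 and pandas 2.3.3, and figures drawn with matplotlib 3.10.9.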

Additional observations from a re-analysis of the deposited data

How the results depend on the processing

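No member passed a fold of 2 with an adjusted p under 0.05 under any of the 19 alternatives, limma giving 0 each time. The count of mitochondrial members that were higher was 6 as reported, 3 with median centring, 3 with quantile normalization and 3 in GC bins. It was 8 at the same FPKM sum, 8 with voom on recovered reads, and 5 to 7 with 1 library left out. The count that were lower was 2 as reported, 1 with no filter, 1 without the variance trend, 4 with median centring, 5 in length bins and 5 in GC bins, and 2 with any library left out. Of the nuclear members 31 were higher as reported, 19 with median centring, 18 in GC bins and 37 with quantile normalization. That count was 27 to 31 with 1 library left out. The lower nuclear members numbered 9 as reported, 14 in GC bins, 6 with quantile normalization and 7 to 10 with 1 library left out. The median log2 fold change of the mitochondrial members was 0.094 as reported, 0.12 at the same FPKM sum, -0.0091 with median centring, 0.019 with quantile normalization, 0.0052 in length bins, -0.019 in GC bins and 0.067 to 0.12 with 1 library left out. That of the nuclear members was 0.13 as reported, 0.11 at a mean of at least 1 FPKM, 0.11 with a pseudocount of 1, 0.15 at the same FPKM sum, 0.024 with median centring, 0.055 in length bins, 0.042 in GC bins and 0.099 to 0.15 with 1 library left out, lying under the median of all genes of the same fit without Hep3B-Con replicate 1 (0.099) or 3 (0.10). With a replicate block the counts were 6 higher and 3 lower mitochondrial members and 32 higher and 8 lower nuclear members, with MT-ND4L gained as lower and COX7A2L lost, and the numbers do not pair the samples.

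Calls that held under all 19 alternatives were MT-ND6 and MT-CYB higher and MT-ND2 lower, and 13 of the 31 higher and 4 of the 9 lower nuclear members, the 4 being ATP5F1B, ATP5F1D, NDUFB7 and SDHB. Among the members that passed the test as reported or are mitochondrially encoded, a sign change occurred with median centring for COX4I1 (-0.015), MT-ATP6 (-0.0091), MT-CO1 (-0.042), MT-CO2 (-0.0053) and MT-ND3 (-0.012), with quantile normalization for MT-ND1 (-0.095), MT-ND4L (0.081) and NDUFS5 (0.050), and at the same FPKM sum for MT-ND4 (0.015). In GC bins it occurred for ATP5MC3 (-0.029), COX7C (-0.11), MT-ATP6 (-0.018), MT-ATP8 (-0.14), MT-CO1 (-0.019), MT-ND3 (-0.20), NDUFA4 (-0.096) and NDUFA5 (-0.062), and in length bins for MT-ATP8 (-0.074), MT-ND3 (-0.14), NDUFA10 (-0.054), NDUFS1 (-0.021) and SDHC (-0.024). MT-ATP8 stood between -0.0035 and 0.28 with 1 library left out, the lowest being without Hep3B-Con replicate 1. Nuclear members that did not pass as reported also changed sign, and NDUFS3 (-0.084) and ATP5F1E (-0.10) then passed as lower with median centring. The causes were not tested. Depth limits the members with under 100 reads per library, and 66 nuclear members had at least 100 in every library.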
